A study of Mus musculus with 52 samples.

Results

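The AP-1 and ATF transcription factor genes Fos, Fosl2, Jun, Junb, Jund, Batf, Atf3 and Atf4 were followed in conventional type 1 dendritic cells (cDC1), the dendritic cells that cross-present antigen to CD8 T cells. The members were the lines of the deposited count table that carry one of these gene names, and all 8 were found among 23135 genes. Bone marrow cells of C57BL/6 mice were cultured in FLT3 ligand plus GM-CSF and CD103+ cells were sorted from them, per the labels, and RNA was read at the 3' end in bulk with unique molecular identifiers (UMIs). The 52 libraries fall into 13 groups of 4, lettered A to D. The sources do not say that these came from separate mice or cultures, so p-values measure the spread between libraries, which may be technical.

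At 4 h, 5 groups received prostaglandin E2 (PGE2, 100 ng/ml) 30 min after a receptor antagonist at 5 uM, namely the EP1 antagonist SC-19220, the EP2 antagonist PF-04418948, the EP3 antagonist L-826,266, the EP4 antagonist L161,982, or a pair. The pair is named EP2 plus EP4 in the sample titles, whereas the treatment field of the same samples lists SC-19220 with L161,982, and this was not settled by the sources. It is called the EP2 plus EP4 antagonist group here, after the titles. The other 4 h groups received PGE2 alone, medium conditioned by BRAFV600E melanoma cells (control CM), medium conditioned by melanoma cells of that kind lacking Ptgs1 and Ptgs2, the cyclooxygenase genes needed to make PGE2 (PGE2-deficient CM), or nothing. At 24 h the groups received PGE2 with poly I:C, poly I:C alone, PGE2 alone or nothing. Poly I:C, a double-stranded RNA mimic that activates TLR3, was given at 10 ug/ml for the last 4 h. The libraries were made from dendritic cells and not from the melanoma cells, so the loss of Ptgs1 and Ptgs2 could not be checked.

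Library totals ran from 42666 UMIs (EP4 antagonist A) and 54107 UMIs (untreated 4 h A) to 438491 UMIs, with a median of 295484.5. Levels are given as CPM, the UMIs of a gene scaled to a common library total with TMM factors, and they hold no gene length, so that values of different genes were not set against each other. All 15 cDC1 markers were detected in every group, and their summed level was 6771 to 7632 CPM in PGE2 libraries at 4 h, against 10802 to 11643 CPM in untreated libraries at 4 h. It was 5610 to 6361 CPM in poly I:C libraries, against 10271 to 10625 CPM in untreated libraries at 24 h. The part of this difference in the results below was not tested. Granulocyte and mast cell markers (9 of 14 listed) summed to at most 15.3 CPM and lymphocyte markers (8 of 12) to at most 25.1 CPM in any library. Macrophage and monocyte markers (15 of 16) summed to 944 to 1166 CPM with PGE2 at 4 h and to 933 to 1439 CPM in untreated cells. The cDC2 markers (all 12) summed to 168 to 229 CPM with PGE2 and 129 to 202 CPM untreated. At 24 h of PGE2, cDC1 markers summed to 6694 to 6902 CPM, below the untreated 24 h values above. Macrophage and monocyte markers then summed to 1782 to 2125 CPM with PGE2 and 1199 to 1621 CPM untreated. The cDC2 markers summed to 251 to 293 CPM with PGE2 and 138 to 183 CPM untreated at 24 h. The part of these sums in the results below was not tested. In bulk RNA, a change in the share of cells and a change in RNA per cell cannot be told apart.

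AP-1 is a family of dimers of basic leucine zipper proteins. FOS and FOSL2 pair with JUN, JUNB or JUND and bind the sequence TGANTCA, while BATF pairs with JUN proteins and works with IRF4 or IRF8 on composite sites in lymphocytes and dendritic cells. ATF and CREB proteins bind TGACG or its palindromic form. PGE2 acts through the receptors EP1 to EP4, of which EP2 and EP4 raise cyclic AMP, which activates CREB, and Fos is a textbook target of that route. ATF3 is a stress- and Toll-like-receptor-induced factor known to dampen inflammatory genes in mouse macrophages, and ATF4 is the effector of the integrated stress response, where its amount is set largely by translation and not by mRNA.

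The promoters of 6 members that passed a test below are shown because they hold such motifs. Each runs from 250 bases before to 50 bases after the gene's start in RefSeq (build GRCm38.p6), is written 5' to 3' along the gene's strand, and has matches of either strand in capitals. Positions are Fos at chr12:85473640-85473939, plus strand, Junb at chr8:84978699-84978998, minus strand, Batf at chr12:85686470-85686769, plus strand, Atf3 at chr1:191183284-191183583, minus strand, Atf4 at chr15:80254934-80255233, plus strand and Jun at chr4:95052173-95052472, minus strand.
Fos: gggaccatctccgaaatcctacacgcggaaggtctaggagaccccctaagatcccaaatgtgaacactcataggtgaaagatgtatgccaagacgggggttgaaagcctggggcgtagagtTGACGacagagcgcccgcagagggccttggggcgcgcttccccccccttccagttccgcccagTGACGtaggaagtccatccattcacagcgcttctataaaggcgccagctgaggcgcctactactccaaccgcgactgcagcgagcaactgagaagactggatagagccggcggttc
Junb: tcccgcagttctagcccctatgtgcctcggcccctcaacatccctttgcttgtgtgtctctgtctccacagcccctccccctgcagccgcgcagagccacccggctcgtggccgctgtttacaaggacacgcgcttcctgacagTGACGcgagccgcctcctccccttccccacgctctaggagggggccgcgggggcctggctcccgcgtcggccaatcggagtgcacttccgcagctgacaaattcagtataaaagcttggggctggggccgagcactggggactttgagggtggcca
Batf: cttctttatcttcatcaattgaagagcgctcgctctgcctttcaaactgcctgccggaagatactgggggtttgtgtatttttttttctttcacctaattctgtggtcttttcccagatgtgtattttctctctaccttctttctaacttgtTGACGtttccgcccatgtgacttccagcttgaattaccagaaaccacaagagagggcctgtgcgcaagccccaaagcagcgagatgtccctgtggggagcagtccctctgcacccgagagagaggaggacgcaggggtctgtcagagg
Atf3: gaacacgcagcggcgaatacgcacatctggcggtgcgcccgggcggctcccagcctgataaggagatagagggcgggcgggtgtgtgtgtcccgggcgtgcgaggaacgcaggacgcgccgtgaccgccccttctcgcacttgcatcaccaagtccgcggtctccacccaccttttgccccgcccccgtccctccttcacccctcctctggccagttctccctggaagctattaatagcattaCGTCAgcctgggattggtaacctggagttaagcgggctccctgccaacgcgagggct
Atf4: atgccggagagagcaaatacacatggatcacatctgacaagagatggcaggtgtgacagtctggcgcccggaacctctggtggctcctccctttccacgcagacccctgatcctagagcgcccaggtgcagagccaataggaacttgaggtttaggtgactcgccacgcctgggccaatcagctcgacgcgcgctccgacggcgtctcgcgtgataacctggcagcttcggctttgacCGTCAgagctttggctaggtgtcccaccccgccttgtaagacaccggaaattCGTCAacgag
Jun: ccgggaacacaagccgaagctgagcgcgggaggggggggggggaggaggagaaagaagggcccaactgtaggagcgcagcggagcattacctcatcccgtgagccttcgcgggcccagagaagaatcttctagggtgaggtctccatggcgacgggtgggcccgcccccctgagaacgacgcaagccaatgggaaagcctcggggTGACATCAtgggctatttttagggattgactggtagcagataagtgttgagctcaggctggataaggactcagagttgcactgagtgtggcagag

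The core motif TGACG, searched on both strands, was present in 5 of the 8 members, against 20.8% of 32851 RefSeq promoters of the same length. Its first base lay at -129 and -66 from the start in Fos, at -106 in Junb, at -98 in Batf, at -7 in Atf3 and at -12 and 41 in Atf4. In Atf3 and Atf4 it lay on the opposite strand and so reads as CGTCA. The Jun promoter held TGACATCA at -45, a form of TGACNTCA, which 8.83% of promoters contain. The longer and the shorter motif can overlap, and this match does not hold the shorter one. The AP-1 motif TGANTCA was found in none of the 8 windows and in 7.81% of all promoters. A match is a description of these letters, and no binding was measured. Whole genes lie on GRCm38 at chromosome 12, 85473890 to 85477273 (Fos), chromosome 5, 32135801 to 32157842 (Fosl2), chromosome 4, 95049034 to 95052222 (Jun), chromosome 8, 84974484 to 84978718 (Junb) and 70698949 to 70700616 (Jund), chromosome 12, 85686669 to 85709087 (Batf), chromosome 1, 191170296 to 191218039 (Atf3) and chromosome 15, 80255184 to 80257541 (Atf4). The RefSeq start lies inside these spans in Fosl2, Batf and Atf3 and before them in Junb and Jund, and the Jund window does not reach the Jund span. Junb overlaps Prdx2 on the opposite strand, Jun the antisense gene Junos, Jund the antisense gene Gm11175, and Atf3 the gene Gm24748. The sources used here do not say whether counting used the strand, so reads of such partners could not be told apart. Gm11175 had at most 1 UMI in any group.

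Within 4 h of PGE2 the Fos and Junb genes rose and Batf fell, while Jun, Jund and Atf4 did not pass the test. Of the 6 members that passed the filter on low counts, 2 were called higher and 1 lower at an adjusted p of at most 0.05, against 5.2% higher and 3.37% lower (8.57% in either direction) of all 5754 genes tested. Here and below the adjusted p comes from edgeR's quasi-likelihood test with Benjamini-Hochberg adjustment over all genes tested, and each fold change is a log2 value given with its standard error (SE).

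Fos, an immediate early gene that encodes a JUN partner with a strong activation domain, stood at 61.1, 65.0, 29.0 and 50.3 CPM in PGE2 libraries A to D, against 30.6, 6.73, 5.74 and 21.2 CPM in untreated libraries. The lowest PGE2 library lay just below the highest untreated one, which is the shallow library A with 2 UMIs of Fos, and the other libraries did not overlap. The log2 fold change was 1.91 ± 0.48 (adjusted p = 0.00233), from 49 UMIs with PGE2 and 14 untreated. Fosl2, a FOS relative that lacks that strong activation domain, was too rare for the test. Its UMIs numbered 3, 3, 8 and 6 with PGE2 and 0, 0, 1 and 0 in untreated cells, so the groups did not overlap. The ratio of summed UMIs, scaled for depth, was 21.8 with an exact 95% interval of 3.49 to 904 that covers counting error only. The two-sided exact permutation test on CPM gave 0.0286, the smallest p that 4 libraries against 4 allow, or 0.152 adjusted over the 16 comparisons of this gene. With that limit, an adjusted value can pass the threshold only if most comparisons of a gene reach the smallest p. Here and below, an adjusted permutation value that did not pass therefore does not decide whether the gene differed. With no filter on low counts edgeR called Fosl2 (3.93 ± 0.99, adjusted p = 0.00513), and DESeq2 did so too (3.89, adjusted p = 0.0212), both fitted against a single untreated UMI.

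Of the 3 Jun genes, Junb was the 1 called. JUNB is a JUN protein with weaker activating power that can restrain JUN. It measured 644, 707, 612 and 637 CPM in PGE2 libraries, against 428, 357, 348 and 368 CPM untreated. All 4 PGE2 libraries lay above all 4 untreated ones, and the log2 fold change was 0.82 ± 0.14 (adjusted p = 6.03e-07). Prdx2, which shares its locus, stood at 176 ± 40.7 CPM with PGE2 and 121 ± 40.0 CPM untreated (SD, n = 4 each), a difference of 0.36 ± 0.21 that did not pass the test (adjusted p = 0.364). Jun, the founding AP-1 gene, averaged 125 ± 23.9 CPM with PGE2 and 95.003 ± 8.79 CPM untreated (SD, n = 4 each), and the difference of 0.39 ± 0.24 did not pass (adjusted p = 0.400). Jund, the most constantly expressed of the Jun genes in most tissues, averaged 176 ± 34.4 CPM with PGE2 and 177 ± 17.5 CPM untreated, with overlapping libraries (log2 fold change -0.07 ± 0.19, adjusted p = 0.914).

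Batf, which encodes a JUN partner with no activation domain that can stand in for BATF3 in mouse cDC1 development, moved the other way. It measured 0, 3.82, 5.80 and 11.2 CPM in PGE2 libraries, against 30.6, 20.2, 28.7 and 21.2 CPM untreated. The groups did not overlap, but the PGE2 libraries held 5 UMIs of Batf in all and the untreated ones 26. The log2 fold change was -2.18 ± 0.66 (adjusted p = 0.0180), and the call was lost with DESeq2 (adjusted p = 0.0506), with no filter on low counts (0.0604), without PGE2 A (0.0783) or B (0.0603) and without untreated C (0.0724). Atf4 averaged 139 ± 28.3 CPM with PGE2 and 97.4 ± 23.5 CPM untreated (0.45 ± 0.23, adjusted p = 0.265). Atf3 had 6 UMIs in all with PGE2 and 22 in untreated cells, or 5.93 ± 5.96 against 25.3 ± 15.5 CPM, with an exact permutation p of 0.0857 (0.429 adjusted over 12 comparisons of this gene). With library totals the Atf3 groups did not overlap, at no more than 14.5 CPM with PGE2 and no less than 15.1 CPM untreated, and the exact permutation p was 0.0286 (0.343 adjusted). The adjusted values of Atf3 are limited in the same way as those of Fosl2.

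**Figure D1:**
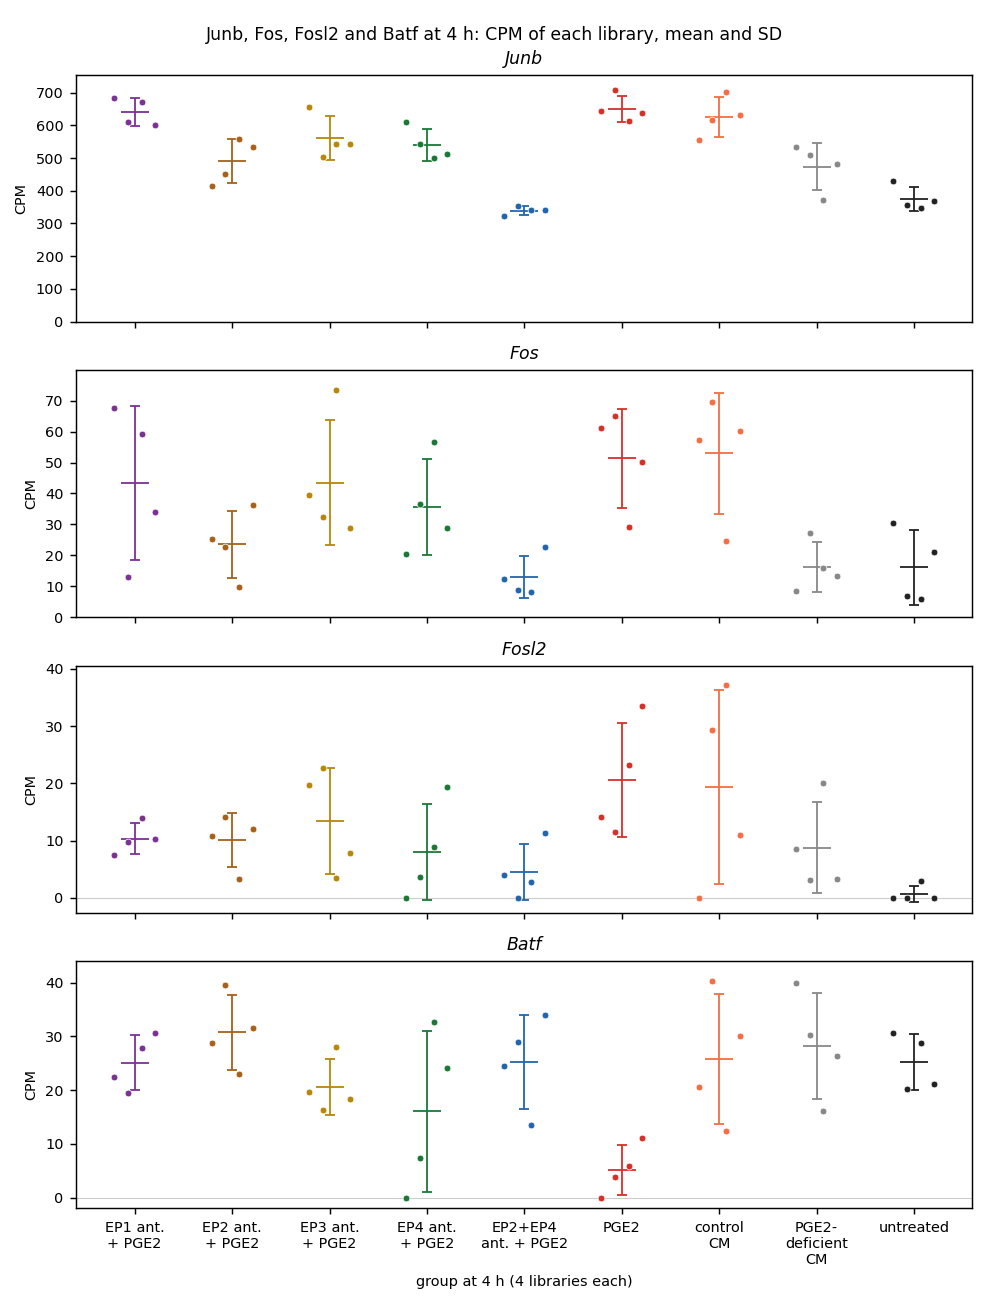
CPM of Junb, Fos, Fosl2 and Batf in each library of the 9 groups at 4 h, with the group mean (wide bar) and SD (whiskers), 4 libraries per group. Junb and Fos are high with PGE2 and control CM and lie near the untreated values with the EP2 plus EP4 antagonists, and Batf is low in the PGE2 group, where it averages 5.20 CPM, while its control CM mean is 25.8 CPM.

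Medium of melanoma cells that can make PGE2 raised Fos and Junb against untreated cells, and Batf did not pass the test (0.13 ± 0.47, adjusted p = 0.930). Control CM had 2 of 6 tested members called higher against untreated cells and none lower (background 4.68% higher, 2.83% lower, 7.51% together). Fos stood at 57.4, 69.5, 24.7 and 60.2 CPM with control CM, against the untreated values above, a log2 fold change of 2.01 ± 0.47 (adjusted p = 0.00087). Library C was the low one of the 4 and overlapped the highest untreated library. Junb stood at 554, 615, 700.4 and 632 CPM with control CM, all above the untreated libraries (0.77 ± 0.14, adjusted p = 3.08e-06). Fosl2 had 0, 8, 9 and 4 UMIs with control CM against 1 in all untreated libraries, and the library without one was A. The exact permutation p was 0.143 (0.286 adjusted over the 16 comparisons), while edgeR with no filter gave an adjusted p of 0.00852 and DESeq2 one of 0.0283. With PGE2-deficient CM Fosl2 had 3, 1, 5 and 1 UMIs, also without overlap with the untreated libraries, although the lowest stood at 3.03 CPM and the highest untreated one at 2.87 CPM, each with 1 UMI. The ratio of summed UMIs to untreated cells was 8.82 there (exact 95% interval 1.25 to 383), and the exact permutation p was 0.0286 (0.152 adjusted), the same p as with PGE2.

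Control CM against PGE2-deficient CM, which addresses what depends on Ptgs1 and Ptgs2 of the melanoma cells, gave 1 called member. Fos stood at 57.4, 69.5, 24.7 and 60.2 CPM with control CM, against 8.54, 27.3, 16.02 and 13.2 CPM with PGE2-deficient CM, and rose by 1.70 ± 0.43 (adjusted p = 0.00528, background 2.33% higher, 1.53% lower, 3.86% together). Control CM C lay below PGE2-deficient CM B, and the other libraries did not overlap. The call was lost without PGE2-deficient CM A (adjusted p = 0.0650). Junb averaged 625 ± 60.3 CPM with control CM and 474 ± 70.9 CPM with PGE2-deficient CM (SD, n = 4 each), with every control CM library above every PGE2-deficient one. Its difference of 0.39 ± 0.13 missed the threshold (adjusted p = 0.0592). It passed with RLE scaling (0.0483), DESeq2 (0.0312), the replicate block (0.0485) and without both shallow libraries (0.0381), as well as without control CM A (0.0362) or PGE2-deficient CM B (0.0475). It did not pass with library totals, with no filter or with only the groups compared. Nor did it pass without any other single library of these groups (adjusted p up to 0.288). Jun, Jund, Batf and Atf4 differed by between -0.25 and 0.16, all with an adjusted p of at least 0.721. Fosl2 averaged 19.3 CPM with control CM and 8.72 CPM with PGE2-deficient CM, with an exact permutation p of 0.314 (0.457 adjusted), so that no difference between the media was shown for it.

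PGE2-deficient CM against untreated cells gave no called member with edgeR or DESeq2, where 0.0695% of all genes were higher and 0.0174% lower (0.0869% together). An unadjusted p under 0.05 was found for 2 of the 6 tested members and for 360 of all 5754 genes. The 2 members were Jun, at 114, 118, 176 and 165 CPM with PGE2-deficient CM and 91.8, 84.1, 103 and 101 CPM untreated (0.56 ± 0.23, adjusted p = 0.585), and Junb (0.39 ± 0.14, adjusted p = 0.408). PGE2-deficient CM library B had the most Fos of its group, with 9 UMIs, and also 32 of the 45 UMIs of Crem counted there. The reason was not tested. Batf averaged 28.1 ± 9.87 CPM with PGE2-deficient CM, 25.8 ± 12.1 CPM with control CM and 25.2 ± 5.25 CPM in untreated cells. A direct comparison of control CM with PGE2, chosen after these values were seen, left Batf at 2.31 ± 0.64 with an adjusted p of 0.158, where 7 of 5754 genes (0.122%, or 0.0348% higher and 0.0869% lower) were called and no member was called with edgeR or DESeq2. Batf was the only one of the 6 members with an unadjusted p under 0.05 there, against 315 of the 5754 genes. Fos and Junb differed by 0.11 ± 0.37 and -0.05 ± 0.13 in that comparison. Melanoma markers (6 of 10 listed) summed to 35.6 to 65.9 CPM with control CM, 3.30 to 21.2 CPM with PGE2-deficient CM, 29.0 to 49.7 CPM with PGE2 alone and 5.74 to 45.9 CPM in untreated cells, and over all libraries they comprised 356 UMIs of Kit, 18 of Mitf, 12 of Pmel, 4 of Ednrb and none of Dct or S100b. Kit was also called higher with PGE2 alone at 4 h (1.70) and at 24 h (1.56). It was called lower with the EP2 plus EP4 antagonists than with PGE2 (-2.72). The source of the marker RNA was not tested.

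Which receptor the PGE2 changes depend on was addressed with antagonists given before PGE2. With the EP2 plus EP4 antagonists Fos and Junb fell and Batf rose relative to PGE2 alone. In that comparison 1 of 6 tested members was called higher and 2 lower, against 4.1% higher and 5.37% lower (9.47%) of all genes. Junb stood at 322, 352, 342 and 342 CPM with both antagonists, against 644, 707, 612 and 637 CPM with PGE2 alone (-0.94 ± 0.13, adjusted p = 2.23e-09). These were the closest 4 Junb values of any group (SD 12.8 CPM), all below every PGE2 library. Fos stood at 12.2, 8.66, 8.08 and 22.7 CPM, against 61.1, 65.0, 29.0 and 50.3 CPM with PGE2 alone, again without overlap (-1.88 ± 0.43, adjusted p = 0.00067). Batf stood at 24.4, 28.9, 13.5 and 34.0 CPM, against 0, 3.82, 5.80 and 11.2 CPM with PGE2 alone (2.25 ± 0.62, adjusted p = 0.0076). Fosl2 had 8 UMIs with both antagonists and 20 with PGE2 alone, and the groups did not overlap, with an exact permutation p of 0.0286 (0.152 adjusted over the 16 comparisons). With library totals the highest antagonist library (12.7 CPM) lay above the lowest PGE2 library (11.8 CPM), and the exact permutation p was 0.0571 (0.286 adjusted).

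Set against untreated cells, the EP2 plus EP4 antagonist group had no called member with edgeR or DESeq2 (background 0.608% higher, 0.191% lower, 0.799% together). Fos differed by 0.03 ± 0.54, Junb by -0.12 ± 0.14, Jun by 0.10 ± 0.23 and Batf by 0.07 ± 0.45. Jund (-0.41 ± 0.18, adjusted p = 0.352) and Atf4 (0.53 ± 0.22, adjusted p = 0.294) had an unadjusted p under 0.05, the 2 of 6 tested members that did, against 646 of 5754 genes. Jund averaged 137 ± 9.76 CPM with both antagonists and 177 ± 17.5 CPM untreated, and every library with the antagonists lay below every untreated one. Both of these comparisons use 1 of the groups of the PGE2 against untreated comparison, so their values were not set against it as independent results.

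Of the single antagonists, the EP2 antagonist gave the lowest mean of Fos and of Junb. Fos averaged 23.5 ± 10.9 CPM with it and Junb 490.2 ± 68.0 CPM, against 51.3 ± 16.1 and 650.0 ± 40.4 CPM with PGE2 alone. The differences of -1.04 ± 0.41 (adjusted p = 0.335) and -0.40 ± 0.13 (adjusted p = 0.164) did not pass the test, although Junb passed with DESeq2 (adjusted p = 0.0304) and when the fit held the 2 groups alone (0.0276), and all 4 Junb values lay below those of PGE2 alone. Batf was the 1 member called with the EP2 antagonist, at 28.8, 39.6, 23.0 and 31.5 CPM against 0, 3.82, 5.80 and 11.2 CPM (2.53 ± 0.61, adjusted p = 0.0213, background 0.0869% higher, 0.33% lower, 0.417% together). That call was lost without PGE2 A (adjusted p = 0.122), B (0.124) or C (0.0845) and without EP2 antagonist B (0.104) or D (0.0678), and DESeq2 gave no adjusted p for it.

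With the EP1, EP3 and EP4 antagonists no member was called by edgeR or DESeq2, and in each case 2 members had an unadjusted p under 0.05. The background was 0% with the EP1 antagonist, where DESeq2 also called none. It was 0.0869% with the EP3 antagonist (0.0348% higher, 0.0521% lower) and 0.0348% with the EP4 antagonist (0.0174% in each direction). Of all 5754 genes, 272 had an unadjusted p under 0.05 with the EP1, 499 with the EP3 and 339 with the EP4 antagonist. Junb averaged 641 ± 42.3 CPM with the EP1, 561 ± 66.6 CPM with the EP3 and 540.4 ± 48.8 CPM with the EP4 antagonist, or -0.01 ± 0.13, -0.21 ± 0.13 and -0.28 ± 0.13 relative to PGE2 alone. Fos averaged 43.4 ± 24.8, 43.6 ± 20.3 and 35.6 ± 15.5 CPM in these groups. Batf averaged 25.1 ± 5.10 CPM with the EP1, 20.6 ± 5.12 CPM with the EP3 and 16.05 ± 15.0 CPM with the EP4 antagonist, against 5.20 ± 4.65 CPM with PGE2 alone. Relative to PGE2 alone it differed by 2.26 ± 0.66 (EP1, adjusted p = 0.551), 1.94 ± 0.66 (EP3, 0.262) and 1.94 ± 0.70 (EP4, 0.627). The Batf difference was 2.53 ± 0.61 with the EP2 antagonist and 2.25 ± 0.62 with the EP2 plus EP4 antagonists, so a rise of similar size was seen with every antagonist. All 5 antagonist comparisons share the 4 PGE2 libraries with their 5 UMIs of Batf. The EP1 and EP3 antagonist libraries lay above every PGE2 library for Batf, and the EP4 antagonist libraries overlapped them, with 0 CPM in the shallow library A. Differences between the antagonists themselves were not tested.

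**Figure D2:**
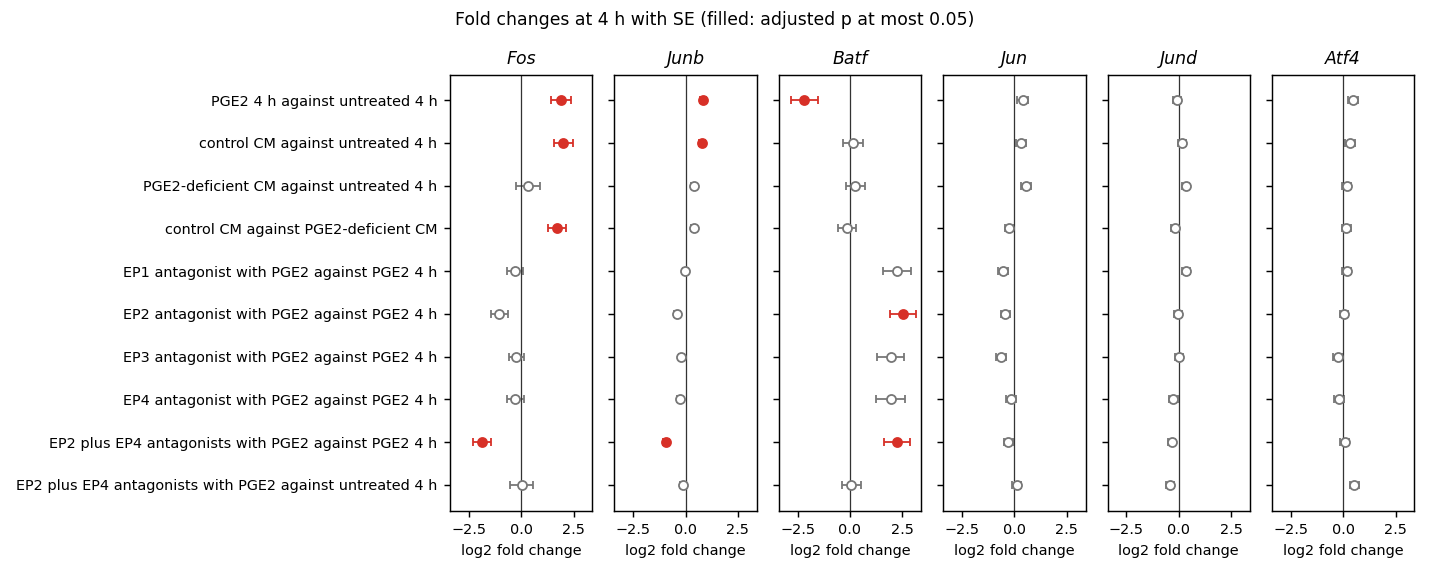
Log2 fold change (points) and its SE (whiskers) of the 6 members tested at 4 h, in 10 comparisons named from the first group to the second, with filled red points for an adjusted p of at most 0.05 and open grey points for others. Fos and Junb are positive with PGE2 and control CM and negative with the EP2 plus EP4 antagonists, and Batf is called in 3 of the 10 comparisons, each of which includes the PGE2 group.

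Lists of related genes were counted in the same way with PGE2 at 4 h, where 5.2% of all genes were higher and 3.37% lower (8.57%). Of 16 other AP-1 and ATF genes 7 were tested, 1 rose and 1 fell, with a median log2 fold change of -0.16 against -0.01 over all genes. Crem, a cAMP-induced relative of CREB, stood at 174 ± 36.6 CPM with PGE2 and 7.30 ± 6.40 CPM untreated (4.89 ± 0.65, adjusted p = 1.52e-06), and Batf3, the factor required for cDC1 development, at 52.1 ± 18.4 CPM with PGE2 and 233 ± 7.38 CPM untreated (-2.21 ± 0.25, adjusted p = 6.44e-13). Both were also called with control CM against PGE2-deficient CM, where Crem rose by 2.17 ± 0.43 and Batf3 fell by 1.15 on the log2 scale (SE 0.23). With the EP2 plus EP4 antagonists 1 gene of this list was called higher and 1 lower, again Batf3 and Crem (background 4.1% higher, 5.37% lower, 9.47% together). Of 10 tested genes of other leucine zipper factors 3 rose with PGE2, namely Nfil3 (3.31 ± 0.51), Xbp1 (0.54 ± 0.14) and Maff (1.55 ± 0.47), and none fell.

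Of 11 tested immediate early genes, the set that cells switch on first after a stimulus, 7 rose and 1 fell with PGE2, with a median of 0.79. Of all genes 5.2% were higher and 3.37% lower in that comparison. Nr4a2, an orphan nuclear receptor, stood at 57.0 ± 7.12 CPM with PGE2 and 2.10 ± 2.73 CPM untreated, Ier3 rose by 1.25 ± 0.23 and Btg1 by 1.67 ± 0.32, and Myc fell by 1.57 on the log2 scale (SE 0.27). With the EP2 plus EP4 antagonists 1 of these 11 was higher and 7 lower than with PGE2 alone (median -0.95, all genes 0.00), against 4.1% higher and 5.37% lower of all genes. Of 15 tested genes of MAP kinases and their phosphatases, the cascade that phosphorylates JUN and FOS, 3 rose and 1 fell with PGE2. The phosphatase genes Dusp5 and Dusp1 rose by 2.64 ± 0.45 and 1.77 ± 0.48, as did the kinase gene Map2k3 (0.72 ± 0.17). Of 16 tested targets of ATF4 and the integrated stress response 1 rose and 1 fell, with a median of -0.03. These values lie near the shares and the median (-0.01) over all genes.

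At 24 h of PGE2 Junb was the 1 member called, against 4.74% higher and 3.32% lower (8.06%) of 5273 genes. It measured 585, 519, 513 and 517 CPM in PGE2 libraries, against 326, 361, 414 and 346 CPM untreated, with no overlap (0.59 ± 0.11, adjusted p = 1.74e-05). Prdx2 on the other strand differed by -0.13 ± 0.16 there. Batf measured 53.5, 19.5, 49.5 and 33.8 CPM in PGE2 libraries, against 13.5, 19.8, 22.5 and 29.7 CPM untreated, and the difference of 0.91 ± 0.41 did not pass (adjusted p = 0.190). Fos, below the filter at this time, averaged 21.1 ± 6.21 CPM with PGE2 and 13.3 ± 5.93 CPM untreated, with an exact permutation p of 0.171. Fosl2 had 1 UMI in all 4 PGE2 libraries and 3 in the untreated ones, so that a difference was not detectable at this depth. Jun, Jund, Atf3 and Atf4 differed by -0.27 ± 0.23, -0.17 ± 0.18, -0.01 ± 0.39 and 0.02 ± 0.23.

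Whether the PGE2 effect itself changed with time was tested across the PGE2 and untreated libraries of 4 h and 24 h. Batf was the 1 of 6 tested members called, with the 24 h effect above the 4 h effect by 3.07 ± 0.80 (adjusted p = 0.00934, background 2.11% higher, 2.26% lower, 4.37% together), and it stayed called without any 1 of the 16 libraries. The PGE2 effect on Junb differed by -0.26 ± 0.18 (adjusted p = 0.536) and on Fos by -1.28 ± 0.75 (adjusted p = 0.430), so that no difference between the times was shown for either. In untreated cells none of the 6 tested members differed between 24 h and 4 h by edgeR or DESeq2 (background 2.31% higher, 2.02% lower, 4.33% together). None of these members had an unadjusted p under 0.05, against 842 of 5403 genes. The Junb mean was 362 ± 37.4 CPM in the untreated group at 24 h, against 375 ± 36.5 CPM in that at 4 h. Prdx2, which shares its locus, was called higher at 24 h (0.67 ± 0.18, adjusted p = 0.0123).

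Poly I:C raised Junb, Atf3 and Atf4 and lowered Jun and Jund. Of 6 tested members 3 were higher and 2 lower than in untreated cells at 24 h, but 65% of all genes tested were called (31.2% higher, 33.8% lower), so that a called member is near the background. Junb stood at 2365, 2189.7, 2209 and 2060.5 CPM with poly I:C, against 326, 361, 414 and 346 CPM untreated (2.52 ± 0.10, adjusted p = 2.75e-59). Every poly I:C library lay above every untreated one by far more than the spread within either group. Prdx2 stood at 280.3 ± 51.2 CPM with poly I:C and 215 ± 13.2 CPM untreated (0.30 ± 0.17, adjusted p = 0.101). Atf3 stood at 322, 244, 313 and 255 CPM with poly I:C, against 21.6, 28.2, 33.8 and 6.60 CPM untreated (3.50 ± 0.27, adjusted p = 3.96e-27), and again the groups lay far apart. Atf4 stood at 253, 139, 201 and 237 CPM with poly I:C, against 105, 76.2, 95.7 and 59.4 CPM untreated, without overlap (1.20 ± 0.21, adjusted p = 2.70e-07).

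Jund stood at 167, 111, 103 and 89.6 CPM with poly I:C, against 194, 186, 163 and 185 CPM untreated, and fell by 0.74 on the log2 scale (SE 0.21, adjusted p = 0.00107). The highest poly I:C library, A, overlapped the lowest untreated one. Jun stood at 69.0, 88.7, 74.9 and 89.6 CPM with poly I:C, against 124, 96.0, 115 and 115 CPM untreated, without overlap (-0.57 ± 0.25, adjusted p = 0.0405). The Jun call was lost with no filter on low counts (adjusted p = 0.116) and without any 1 of 7 of the 8 libraries, namely poly I:C A (0.143), B (0.0534), C (0.116) or D (0.0620) and untreated A (0.0951), C (0.0730) or D (0.0702). Batf averaged 23.7 ± 9.01 CPM with poly I:C and 21.4 ± 6.72 CPM untreated (0.09 ± 0.49, adjusted p = 0.878). Fos averaged 16.9 ± 10.2 CPM with poly I:C and 13.3 ± 5.93 CPM untreated, with an exact permutation p of 0.543, and Fosl2 had no UMI with poly I:C and 3 untreated, which leaves a difference not detectable at this depth.

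The scaling between libraries bears on these values. The 50 most abundant genes took 41.0% to 42.8% of the UMIs of poly I:C libraries, TMM factors there were 0.627 to 0.640, and the median of all genes was -0.10 with TMM, -0.21 with RLE factors and -0.82 with library totals alone. The share of called genes that were higher was 48% with TMM and 25.3% with library totals. With library totals Junb (1.80), Atf3 (2.79) and Atf4 (0.48, adjusted p = 0.0345) remained higher and Jun (-1.28) and Jund (-1.46) lower. Relative to the median of all genes, the values were equal to 2 decimals under TMM and library totals, at 2.62 for Junb, 3.61 for Atf3, 1.30 for Atf4, -0.46 for Jun and -0.64 for Jund. A change of scaling shifts every gene and the median by nearly the same amount, so this equality follows from arithmetic. It does not test whether the changes depend on the scaling. Batf, which was not called, was at 0.09 with TMM, -0.01 with RLE factors and -0.61 with library totals.

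**Figure D3:**
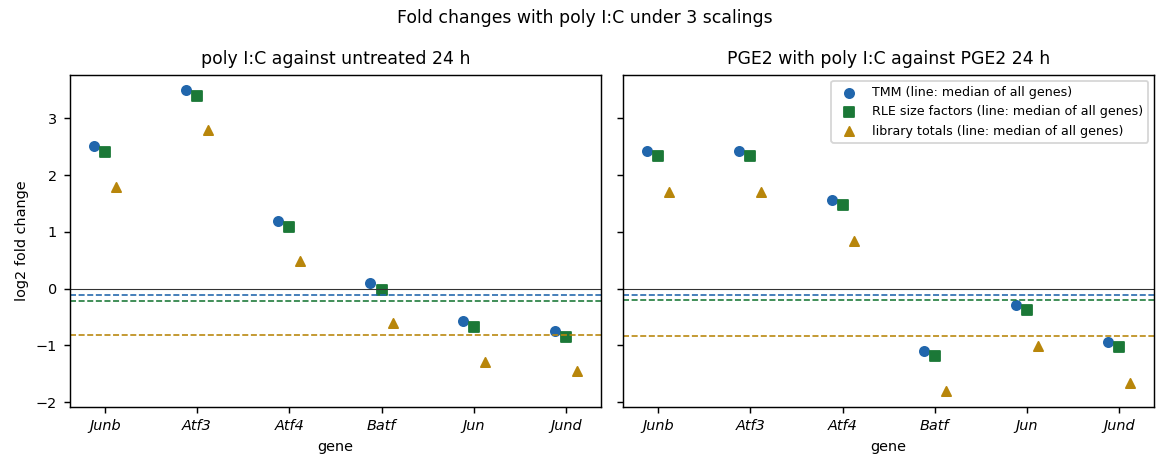
Log2 fold change of the 6 members tested at 24 h in both comparisons that add poly I:C, under TMM, RLE size factors and library totals (symbols), with the median of all genes under each scaling as a dashed line. Library totals lower each gene and the median of all genes by a similar amount, from a median of -0.10 to -0.82 with poly I:C against untreated, and Junb, Atf3 and Atf4 stay above 0.

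The plasmacytoid dendritic cell marker list (12 genes) summed to 2386 to 2921 CPM with poly I:C and 132 to 224 CPM untreated. That sum was carried by Irf7 (1532 UMIs with poly I:C, 27 untreated) and Bst2 (476 and 133 UMIs), both known as interferon-induced genes. Irf7, Bst2 and Tcf4 were the 3 genes of this list tested, and all 3 were called higher. Tcf4 had 53 UMIs with poly I:C and 10 untreated, Il3ra 24 and 13, and Ly6d 8 and 2. Siglech, a defining marker, had 1 UMI with poly I:C and 15 untreated. Ccr9 had 10 and 22, Pacsin1 1 and 3, Spib 1 and 2, and Cox6a2 0 and 1. Macrophage and monocyte markers summed to 506 to 682 CPM with poly I:C and 1199 to 1621 CPM untreated, and cDC2 markers to 33.3 to 62.7 CPM with poly I:C and 138 to 183 CPM untreated. Poly I:C libraries had 8852 to 9436 genes detected and 0.192% to 0.276% mitochondrial UMIs, against 10984 to 11363 genes and 0.321% to 0.368% in untreated libraries at 24 h, with no overlap in either. The part of these lists and measures in the members' changes was not tested.

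**Figure D4:**
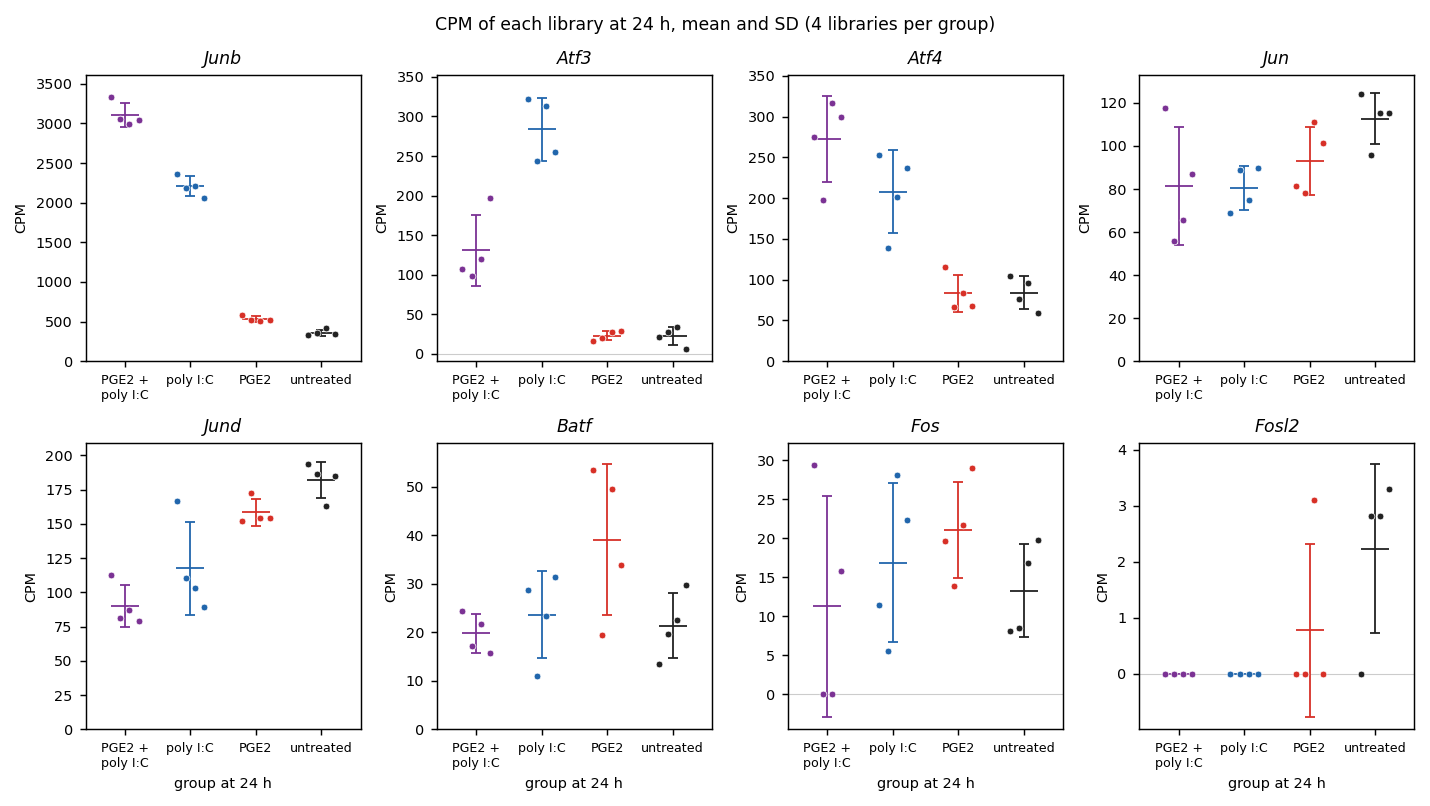
CPM of all 8 members in each library of the 4 groups at 24 h, with the group mean (wide bar) and SD (whiskers), 4 libraries per group and a separate axis per gene. Junb is highest with PGE2 and poly I:C together (2995 to 3328 CPM), Atf3 is highest with poly I:C alone (244 to 322 CPM), and Fosl2 is at 0 in both groups with poly I:C.

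Cells given PGE2 and poly I:C had more Junb and less Atf3 than cells given poly I:C alone. In this comparison 1 of 6 tested members was higher and 1 lower, against 5.03% higher and 5.65% lower (10.7%) of all genes. Junb stood at 3328, 3059, 2995 and 3042 CPM with both agents, against 2365, 2189.7, 2209 and 2060.5 CPM with poly I:C alone, with no overlap (0.50 ± 0.09, adjusted p = 3.84e-06). Prdx2 averaged 273 ± 26.5 CPM with both agents and 280.3 ± 51.2 CPM with poly I:C alone (-0.03 ± 0.17). Atf3 stood at 108, 98.7, 120.0 and 197 CPM with both agents, against 322, 244, 313 and 255 CPM with poly I:C alone (-1.09 ± 0.22, adjusted p = 4.20e-05). Library D with both agents was the highest of its group and still lay below every poly I:C library. Atf4 averaged 272 ± 52.7 CPM with both agents and 208 ± 50.9 CPM with poly I:C alone (0.38 ± 0.19, adjusted p = 0.221). Jun, Jund and Batf differed by 0.01 ± 0.28, -0.37 ± 0.25 and -0.29 ± 0.55. Fos averaged 11.3 ± 14.2 CPM with both agents and 16.9 ± 10.2 CPM with poly I:C alone, with an exact permutation p of 0.571.

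The interaction of PGE2 and poly I:C, the PGE2 effect with poly I:C minus the PGE2 effect without it, gave no called member with edgeR or DESeq2 (background 0.91% higher, 2.43% lower, 3.34% together). Atf3 was the 1 of 6 tested members with an unadjusted p under 0.05, against 756 of 5273 genes. Its interaction was -1.08 ± 0.46 (adjusted p = 0.227), so that its fall with PGE2 is not shown to differ from the absence of a call without poly I:C, where it averaged 23.3 ± 6.00 CPM with PGE2 and 22.5 ± 11.7 CPM untreated. The Junb interaction was -0.09 ± 0.14 (adjusted p = 0.858), with the PGE2 effects at 0.50 with poly I:C and 0.59 without it.

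Poly I:C added to PGE2 gave 3 members higher and 2 lower than PGE2 alone at 24 h, where 64.8% of all genes were called (30.7% higher, 34% lower). Junb (2.43 ± 0.10, adjusted p = 7.32e-60), Atf3 (2.42 ± 0.31, adjusted p = 2.01e-12) and Atf4 (1.56 ± 0.21, adjusted p = 1.06e-11) were higher and Jund (-0.93 ± 0.22, adjusted p = 0.000109) was lower. Prdx2 was called higher too (0.39 ± 0.17, adjusted p = 0.0340), at 273 ± 26.5 CPM with both agents and 196 ± 23.1 CPM with PGE2 alone (SD, n = 4 each), and its part in the Junb value was not tested. Batf stood at 24.5, 17.2, 21.8 and 15.8 CPM with both agents, against 53.5, 19.5, 49.5 and 33.8 CPM with PGE2 alone (-1.10 ± 0.46, adjusted p = 0.0299). PGE2 B was the low one of its group and overlapped the others. The Batf call was lost with no filter on low counts (adjusted p = 0.0988) and without PGE2 A or C or the libraries B or D with both agents (up to 0.135). Jun, at -0.29 ± 0.26 with TMM (adjusted p = 0.324), was called lower with library totals (-1.01, adjusted p = 0.000231), where the median of all genes was -0.83 (-0.11 with TMM). With library totals Batf was at -1.81 (adjusted p = 0.000200), Atf4 at 0.84 (adjusted p = 0.000163), Atf3 at 1.71, Junb at 1.70 and Jund at -1.65, all still called. Relative to the median of all genes Batf was at -0.99 with TMM and -0.98 with library totals, and Atf4 at 1.67 with both, a near equality that again follows from arithmetic.

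**Figure D5:**
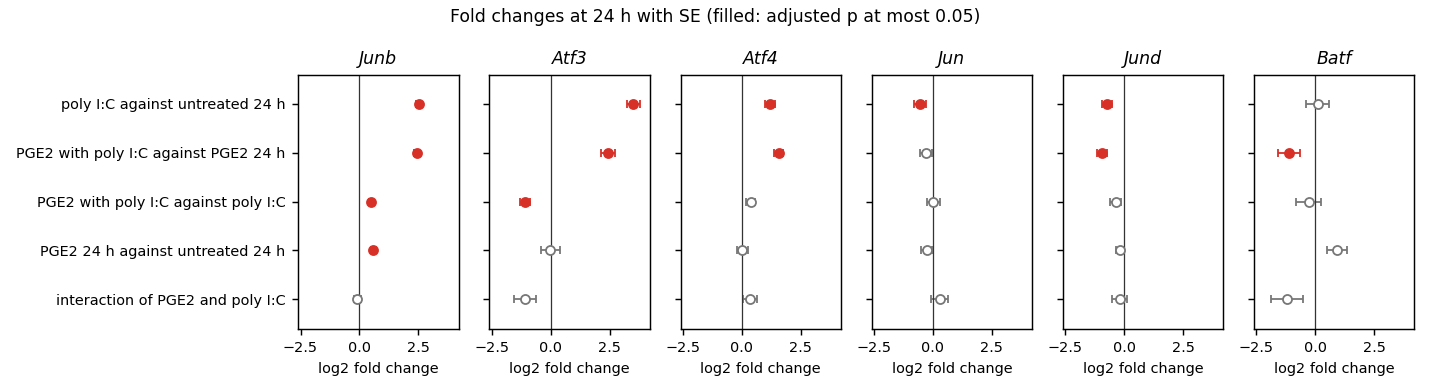
Log2 fold change (points) and its SE (whiskers) of the 6 members tested at 24 h in 4 comparisons and the interaction, with filled red points for an adjusted p of at most 0.05. Junb is called in all 4 comparisons and Atf3 in 3, with opposite signs in PGE2 with poly I:C against poly I:C (0.50 and -1.09).

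Around the members, poly I:C called 4 of 7 tested other AP-1 and ATF genes (2 higher, 2 lower, median 0.47). Jdp2, which encodes a repressive JUN partner, rose by 3.91 ± 0.51 and Crem by 2.08 ± 0.39, while Atf6b, a gene of the response to misfolded protein, fell by 2.19 on the log2 scale (SE 0.47) and Batf3 by 0.61 (SE 0.21). Of 12 tested immediate early genes 8 rose and 3 fell (median 2.19), with Nr4a3 at 5.99 ± 0.20 and Klf6 at 3.55 ± 0.12. Of 15 tested genes of MAP kinases and phosphatases 8 rose and 3 fell (median 0.69), with Dusp2 at 4.25 ± 0.20. Of 17 tested targets of ATF4 and the integrated stress response 9 rose and 6 fell (median 0.67), among them Ppp1r15a (4.38 ± 0.28), which encodes the phosphatase subunit that ends that response, and the one-carbon enzyme gene Mthfd2 (1.42 ± 0.15). These counts stand beside 65% of all genes called. With PGE2 and poly I:C against poly I:C alone, 5.03% of all genes were higher and 5.65% lower (10.7%). In that comparison 6 immediate early genes of 12 rose and 1 fell (median 0.73), Ier3 by 0.83 ± 0.16 among those that rose. Of 15 MAP kinase and phosphatase genes 4 rose, Dusp2 by 0.94 ± 0.12 and Dusp5 by 1.11 ± 0.18. There 1 of 17 ATF4 targets rose and none fell (median 0.22).

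Ranked over all 13 groups by mean level, Junb was lowest with the EP2 plus EP4 antagonists (339.6 CPM), followed upward by untreated cells at 24 h and 4 h, PGE2-deficient CM, the EP2 antagonist, PGE2 at 24 h, the EP4 and EP3 antagonists, control CM, the EP1 antagonist and PGE2 at 4 h, and then by poly I:C and PGE2 with poly I:C (3106 ± 150.2 CPM, SD, n = 4). Of the 12 pairs of neighbours in that order, 2 did not overlap, PGE2 at 4 h with poly I:C and poly I:C with PGE2 plus poly I:C. Atf3 also had 2 such pairs, while the neighbours of Fos, Fosl2, Jun, Jund, Batf and Atf4 all overlapped. How many such pairs other genes have was not computed, so these counts only describe the members. Of all genes tested, 65% were called with poly I:C against untreated cells. Atf3 ran from 5.93 CPM with PGE2 at 4 h to 284 CPM with poly I:C, Atf4 from 83.4 CPM with PGE2 at 24 h to 272 CPM with PGE2 and poly I:C, and Fos from 11.3 CPM with PGE2 and poly I:C to 53.0 CPM with control CM. Jun ran from 79.5 CPM with the EP3 antagonist to 143 CPM with PGE2-deficient CM, and Jund from 90.1 CPM with PGE2 and poly I:C to 229.6 CPM with PGE2-deficient CM. Batf ran from 5.20 CPM with PGE2 at 4 h to 39.1 CPM with PGE2 at 24 h.

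Across the 13 group means of log2 CPM, the 5 members tested at both times differed in pattern. As a description over groups that share a time and a scaling, Pearson's r was 0.82 between Junb and Atf4 and -0.73 between Junb and Jund, and Batf stayed between -0.14 and 0.13 with each of the others. Both groups with poly I:C held the highest means of Junb and of Atf4 and the lowest of Jund, and r without these groups was not computed. Among 4896 genes tested at both times, the genes most like Junb were Aebp2 (0.99), Cx3cl1 (0.99) and Cd83 (0.99), those most like Jund were Spcs3 (0.94), Nfic (0.92) and Baz1b (0.91), and those most like Atf4 were Srsf3 (0.94), Ass1 (0.94) and Cdkn1b (0.93). Jun was most like Rrp36 (0.84), Rgl2 (0.81) and Gtf2h1 (0.78), and Batf most like Map2k2 (0.82), Mtch2 (0.74) and Bdp1 (0.74). Over the 52 single libraries these values ranged from 0.0962 for Batf and Bdp1 to 0.98 for Junb and Cd83.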

How the data were processed

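UMI counts per gene were deposited by the authors as 1 table of whole numbers, with 1 column per library and no normalised values. Per the labels' protocols, libraries were sequenced on a NextSeq 500 and UMI tables were made with the Drop-seq pipeline on GRCm38 with Ensembl release 75. DESeq2 1.14.1 and build GRCm38.p6 appear in the submitters' processing notes. No source used here names the aligner or says whether strand was used. Of 23136 lines, 1 with a text entry was left out, and 20 names turned into dates (0.105% of counts) were named in no result.

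Counts were analysed in R 4.3.3 with edgeR 4.0.16 (TMM scaling, filterByExpr by group with a minimum count of 10, robust quasi-likelihood fit) and Benjamini-Hochberg adjustment, at a threshold of 0.05. The 36 libraries at 4 h (5754 genes), the 16 at 24 h (5273 genes) and the 16 untreated and PGE2 libraries of both times (5403 genes) were fitted separately, and each fit shares 1 estimate of the spread. CPM was scaled with TMM over all 52 libraries, with a prior count of 2 in log2 CPM for likeness between genes. Members below the filter were compared by two-sided exact permutation tests on CPM, 4 libraries against 4, adjusted over the comparisons of the gene. These adjusted values can pass only if most comparisons of the gene reach the smallest possible p, so failing to pass is not evidence of no difference. A count of 0 allows up to 3 counts, and counting intervals cover counting error only. The fit was run on counts simulated from its own means and spread, which does not check it against the real counts of rare members. Promoters and gene positions came from RefSeq (GRCm38.p6) and GENCODE (GRCm38), and all 8 members matched by symbol.

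The members and lists were chosen with earlier results of these data known. Besides the members in every group, up to 4 called genes per list and comparison and the 3 genes most like each member were named by rule. Crem in a single library, single marker genes, genes overlapping a member, and the comparison of control CM with PGE2 were chosen after values were seen. Alternatives were RLE factors, library totals, no filter, DESeq2 1.42.0, only the groups compared, a replicate block, each library left out, and both shallow libraries left out.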

Additional observations from a re-analysis of the deposited data

Results flagged for a closer look

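In 5 of 102 combinations of a member and a group, 1 library stood apart from the other 3 by Dixon's criterion at 95%, about the share that chance gives (1 in 20). Junb in PGE2 library A at 24 h stood at 585 CPM, with the other 3 between 513 and 519 CPM, and Jund in PGE2 library B at 24 h at 173 CPM, with the others between 152 and 155 CPM. The other 3 were Fosl2, each a matter of 1 UMI. PGE2 library C at 24 h stood at 3.09 CPM and untreated library C at 4 h at 2.87 CPM, each with 1 UMI against 0 in the others, and untreated library A at 24 h stood at 0 against 1 UMI in each of the others. The PGE2 effect on Batf differed between the times, the effect at 24 h lying 3.07 ± 0.80 (log2, SE) above that at 4 h (edgeR's quasi-likelihood test, adjusted p = 0.00934), with 49 UMIs in PGE2 libraries and 29 in untreated ones at 24 h and 5 and 26 at 4 h.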

How the results depend on the processing

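Of 24 member results called, each kept its direction under each alternative that gave a value, and none was lost with RLE factors, library totals, the replicate block or without both shallow libraries (for the 11 called results these touch). No filter lost 3 of 24, DESeq2 1 of 23, and single libraries left out 20 of 200 values, those of Batf, Jun and Fos named in the report. Control CM against PGE2-deficient CM had 1 member called, against 2 with RLE factors, DESeq2, the replicate block or without both shallow libraries, 0 when only the groups compared were fitted, and 0 to 2 with 1 library left out. With only the groups compared, 1 member was called for PGE2 at 4 h against untreated, 1 for control CM against untreated and 1 for the EP2 plus EP4 antagonists against PGE2, because Fos and Batf then fell below the filter on low counts. The EP2 antagonist count ran from 0 to 1 with 1 library left out.

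Counts over all genes moved by over 1.5 times with only the groups compared for the EP2 antagonist (82 against 24), the EP3 antagonist (9 against 5), the EP2 plus EP4 antagonists against untreated (74 against 46), PGE2-deficient CM (2 against 5) and control CM against PGE2 (23 against 7, and 13 with the replicate block). No filter gave 81 against 176 for the interaction, 129 against 236 for the times, 151 against 234 for untreated cells over time, 10 against 5 for PGE2-deficient CM and 0 against 5 and 2 for the EP3 and EP4 antagonists, DESeq2 gave 0 for both of these and 1 for PGE2-deficient CM, library totals gave 30 for the EP2 plus EP4 antagonists against untreated, and leaving out both shallow libraries gave 24 there, 1 for the EP4 antagonist and 3 for PGE2-deficient CM. With library totals the share of called genes that were higher was 43% for PGE2 at 4 h (60.6% with TMM), 49.8% for control CM against PGE2-deficient CM (60.4%), 49.5% for control CM against untreated (62.3%), 59.3% for the EP2 plus EP4 antagonists against PGE2 (43.3%), 64.6% for the times (48.3%) and 23.5% for poly I:C added to PGE2 (47.5%). Letters A to D were not taken to pair the libraries, since no source says that they mark a shared mouse or culture. Same-letter correlations of deviations ran from -0.066 to 0.056. Counting error in genes with few UMIs lowers such correlations, so they cannot exclude a pairing. As a hint from the data, 23 of 36 libraries at 4 h and 14 of 16 at 24 h correlated best with their own letter, above the 1 in 4 expected of letters with no meaning. What libraries of the same letter share is named by no source and was not tested. The replicate block changed no other member call. Depth limits Fos, Fosl2, Batf and Atf3, of which no group at 4 h had more than 61 UMIs.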
